A study of Mus musculus with 8 samples.

Results

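The 10 genes described here code for chaperones and sorting receptors of the endoplasmic reticulum (ER): Hspa5, Hsp90b1, Pdia3, Pdia4, Pdia6, Calr, Canx, Kdelr1, Kdelr2 and Kdelr3. They are 10 of the 18193 genes measured. All probe sets annotated to exactly 1 of these symbols were taken, 21 in all, and where a gene had several, the brightest over the 8 arrays was used. All 10 genes were measured, and each had a mean intensity above the median of all genes, 103. The set was put together with earlier results of these arrays in view. The low level of Kdelr3 and the high level of Hspa5 in the Jmjd2b knockdown were part of what it was chosen by, so these are given as a description without a test, as is the level of Kdelr3 in the Jmjd2c knockdown.

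All arrays came from cultures of embryonic stem (ES) cells from male 129S4/Svjae mice, phenotype agouti, kept in medium with leukemia inhibitory factor. Lentivirus delivered short hairpins to GFP in the control (3 arrays), to Jmjd2b (3 arrays) or to Jmjd2c (2 arrays). All groups were selected with puromycin and passaged before total RNA was taken. As far as the labels say, each target had 1 hairpin, and they do not say whether replicates came from separate infections, so p-values here reflect the spread of these arrays alone, perhaps a technical one. The annotation lists Jmjd2b under Kdm4b and Jmjd2c under Kdm4c. Both are histone H3 demethylases, and the title of the study names their part in ES cell identity as its subject.

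Proteins that enter the secretory pathway fold in the ER. Hspa5 (BiP) and Hsp90b1 (GRP94) are its HSP70 and HSP90 chaperones, protein disulfide isomerases form and rearrange disulfide bonds, and calnexin (Canx) and calreticulin (Calr) hold glycoproteins until they are folded. Soluble ER proteins end in the signal KDEL or a close variant. KDEL receptors bind it in the Golgi and return the protein to the ER in COPI vesicles. Unfolded proteins in the ER activate the sensors IRE1, PERK and ATF6, and the factors XBP1 and ATF6 raise the transcription of many ER chaperones, while PERK acts through ATF4 and CHOP.

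The ER stress element, through which ATF6 acts with NF-Y, is shown first because it is what several of these chaperone promoters have in common in sequence. It was searched on both strands as CCAAT and CCACG with exactly 9 bases between them, 19 bases in all. The windows run from 250 bases before to 50 bases after each gene's start in the RefSeq promoter table (GRCm38.p6). The table had 9 of the 10 genes, without Kdelr2. The element was present in 5 of these 9 and in 39 of all 32851 windows, or 0.119%. It is shown because these promoters share it, so the counts are a description and were not tested. The fixed bases are in capitals, and each sequence is read 5′ to 3′ in the direction of the element.
Hspa5: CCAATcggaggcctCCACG
Hsp90b1, distal: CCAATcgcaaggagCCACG
Hsp90b1, proximal: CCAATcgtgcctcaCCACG
Pdia6: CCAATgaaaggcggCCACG
Calr: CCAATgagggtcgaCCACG
Canx: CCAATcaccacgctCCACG
The Hspa5 element lies at chr2:34772025-34772043 (+ strand). Those of Hsp90b1 lie at chr10:86705638-86705656 (- strand) and chr10:86705533-86705551 (+ strand). The others lie at chr12:17266491-17266509 (Pdia6, + strand), chr8:84847075-84847093 (Calr, + strand) and chr11:50325800-50325818 (Canx, - strand). The distal element of Hsp90b1 and those of Hspa5, Pdia6 and Canx have the orientation of their gene, and the proximal one of Hsp90b1 and that of Calr the opposite one. All lie upstream of the start.

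Kdelr3 is shown beside Hspa5 because these are the members whose levels the set was chosen by. The 250 bases before the start of Hspa5, chr2:34771840-34772089 (+ strand), hold the element in capitals. The 250 bases before the start of Kdelr3, chr15:79516158-79516407 (+ strand), hold CCACGTCA, in capitals, the reverse complement of TGACGTGG, a sequence bound by XBP1 and ATF6.
Hspa5, upstream: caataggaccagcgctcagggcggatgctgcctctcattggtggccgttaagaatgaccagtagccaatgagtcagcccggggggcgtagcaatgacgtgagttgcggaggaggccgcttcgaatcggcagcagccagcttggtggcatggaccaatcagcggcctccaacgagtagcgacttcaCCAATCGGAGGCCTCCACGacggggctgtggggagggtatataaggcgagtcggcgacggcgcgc
Kdelr3, upstream: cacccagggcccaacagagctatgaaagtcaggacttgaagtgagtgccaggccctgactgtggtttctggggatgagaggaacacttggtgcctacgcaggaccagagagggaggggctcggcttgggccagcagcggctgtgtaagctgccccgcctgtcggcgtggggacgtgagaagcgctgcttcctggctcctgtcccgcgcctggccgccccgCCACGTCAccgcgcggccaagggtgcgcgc
TGACGTGG, on either strand, was in 222 of the 32851 windows (0.676%), and Kdelr3 was the only one of the 9 genes with these exact letters. The Hspa5 bases above hold tgacgtga, in lower case, which differs in the last base only. Such near matches were not searched for. The shorter CCACG, which is part of both sequences, was in 32.8% of the windows and in 7 of the 9 genes, the exceptions being Pdia3 and Kdelr1. ATTGG, 1 base and CCACG, called ER stress element II, was in 0.0365% of the windows and in 0 of the 9. A match describes these letters only.

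The arrays had medians between 44.7 and 46.6, and their number limits the precision of every value. Kdm4b had an intensity of 468 ± 157 in the control (SD, n = 3) and 32.2 ± 16.8 in the Jmjd2b knockdown (SD, n = 3). Kdm4c had 1281 ± 63.2 in the control (SD, n = 3) and 306 ± 232 in the Jmjd2c knockdown (SD, n = 2), where the arrays lay at 142 and 469. Each knockdown also had less RNA of the other gene, with every array below all controls. Kdm4c was at 734 ± 76.3, or 57.3% of control, in the Jmjd2b knockdown (limma, adjusted p = 0.102). Kdm4b was at 265 ± 28.4, or 56.6%, in the Jmjd2c knockdown (limma, adjusted p = 0.178). Effects of the 2 hairpins are therefore not taken as separate. Some pairs of arrays shared 0.448% to 0.605% of their deposited values exactly, and no other pair shared more than 0.0776%. By this, control array 3 goes with Jmjd2b array 1, and Jmjd2b array 3 with both Jmjd2c arrays. The remaining arrays, control 1 and 2 and Jmjd2b 2, are alike only in that nearly all their low values end at 1. These 3 groups are called array sets here, and the one with the Jmjd2c arrays holds no control. The 10 pluripotency markers fixed for these cells, such as Pou5f1 and Sox2, were all above the median of all genes. Their sums were 64413 to 66157 in the control, 56723 to 60841 with the Jmjd2b hairpin and 58606 and 59168 with the Jmjd2c hairpin, and 5 of the 10 fell and 2 rose in the Jmjd2b knockdown by limma. Their part in the results below was not tested. The actin 3′ to 5′ ratio, a sign of RNA quality, was 1.45 to 1.63 in the controls, 1.31 to 1.42 in the Jmjd2b knockdown and 1.43 to 1.48 in the Jmjd2c knockdown. This ratio was lower in every Jmjd2b array than in every control, while the Jmjd2c arrays overlapped the controls. The Gapdh 3′ to 5′ ratio overlapped among all groups. It was 0.936 to 0.980 in the controls, 0.937 to 0.987 in the Jmjd2b and 0.943 to 0.987 in the Jmjd2c knockdown. The part of RNA quality in the results was not tested either.

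In the Jmjd2b knockdown, transcripts of most of these ER chaperones were higher than in the control by up to 1.69-fold, while Kdelr3 was at 13.9% of its control level. Of the 8 members other than Hspa5 and Kdelr3, 5 passed the limma fit over all genes (adjusted p under 0.05), where 24.4% of all genes passed. All 5 were higher, as were 11.5% of all genes, and 0 were lower (limma, 0 unadjusted), as were 12.9% of all genes. The arrays of the groups did not overlap for 7 of the 8, the exception being Pdia4, and for 44.8% of all genes. The median difference of the 8 was 0.35 on the log2(intensity + 16) scale, used for every difference here, beside -0.03 for all genes. After Jmjd2c knockdown, of the 9 members other than Kdelr3, 3 passed, beside 9.53% of all genes. All 3 were higher, beside 4.28% of all genes, and 0 were lower (limma, 0 unadjusted), beside 5.25%. There 5 of the 9 did not overlap, beside 38.6%, and the median difference was 0.34, beside -0.02. The members were chosen with results of these comparisons in view, so the counts describe them and nothing is read from their excess over the shares of all genes. The members also all lie above the median level, where larger shares of genes passed. With only those 9096 genes in the limma fit, 3686 passed in the Jmjd2b and 1775 in the Jmjd2c knockdown. Both comparisons use the same 3 control arrays, so they are not independent. In these bulk samples, fewer cells with a transcript and less of it per cell cannot be told apart.

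**Figure D1:**
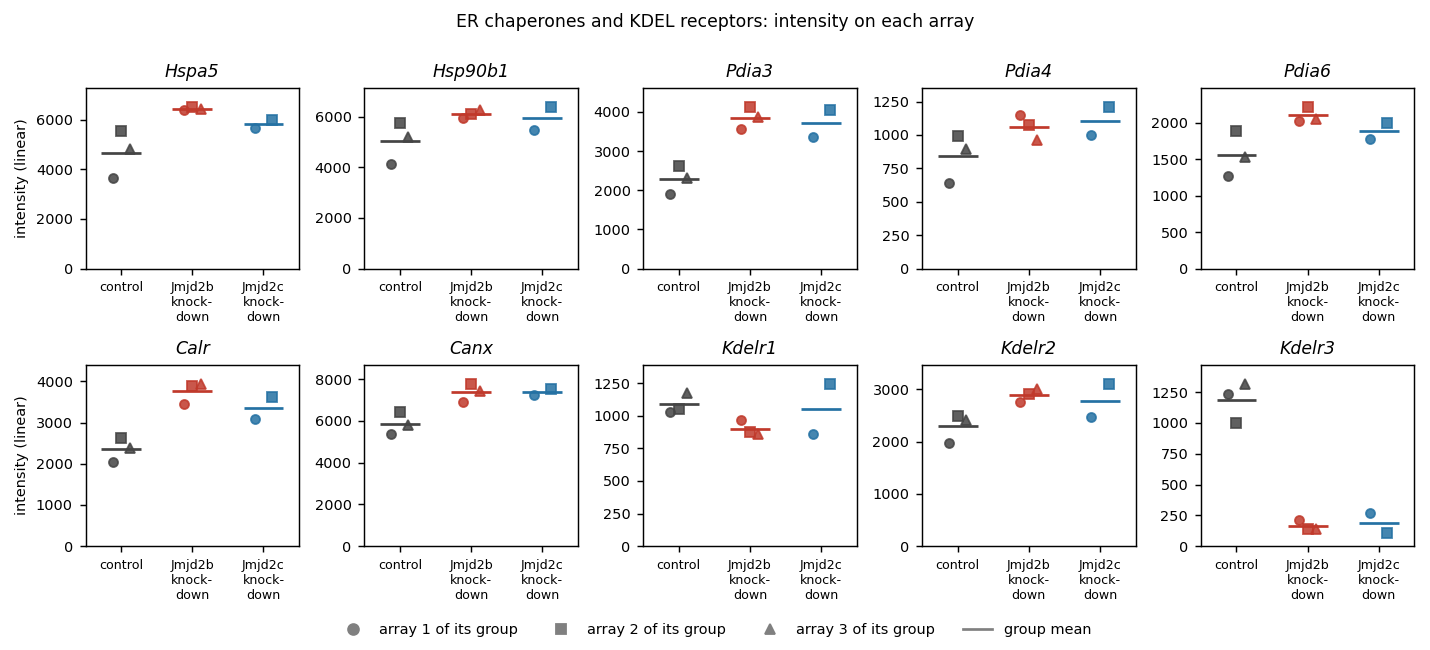
Intensity (linear scale, from 0) of the main probe set of each of the 10 genes on every array, with a line at the group mean. Kdelr3 lies between 102 and 268 in both knockdowns and between 1003 and 1312 in the control, while Pdia3 and Calr lie higher in every knockdown array than in every control array.

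Of the KDEL receptors, Kdelr3 was far lower in both knockdowns, Kdelr2 rose in the Jmjd2b knockdown and Kdelr1 passed in neither. Kdelr3, the receptor whose promoter is shown above, had intensities of 1231, 1003 and 1312 in the control, 212, 140 and 141 with the Jmjd2b hairpin and 268 and 102 with the Jmjd2c hairpin. Every knockdown array lay far below every control array, and the knockdown groups overlapped each other. The difference was -2.75 ± 0.29 (log2, SE) after knockdown of Jmjd2b, and -2.70 ± 0.32 in the Jmjd2c knockdown, where the mean was 15.7% of the control. On the log2 scale the 2 Jmjd2c arrays lay further apart than the 3 controls did. The difference from the control was -3.33 without Jmjd2c array 1 and -2.07 without Jmjd2c array 2. Within the array sets that hold both groups, the Jmjd2b difference of Kdelr3 was -2.85 and -2.54.

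Kdelr2, the receptor with no promoter window here, had 1980, 2495 and 2405 in the control, 2763, 2917 and 2997 with the Jmjd2b hairpin, and 2480 and 3093 with the Jmjd2c hairpin. The Jmjd2b arrays lay above all controls, and the lower Jmjd2c array lay inside the control range. Kdelr2 rose in the Jmjd2b knockdown by 0.34 ± 0.11 (log2, SE; limma, adjusted p = 0.0489), the call nearest the threshold. The call was lost without any one of control arrays 1 and 3 and the 3 Jmjd2b arrays (adjusted p 0.0849 to 0.155, differences 0.24 to 0.38). Its value in the Jmjd2c knockdown was 0.28 ± 0.12 (adjusted p = 0.204), and without Jmjd2c array 1 it was 0.44 (adjusted p = 0.0481).

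Kdelr1, the third KDEL receptor, had 1031, 1055 and 1174 in the control, 965, 877 and 859 with the Jmjd2b hairpin, and 863 and 1240 with the Jmjd2c hairpin. All 3 Jmjd2b arrays lay below the controls by a margin smaller than the spread of the Jmjd2c arrays, which took in the whole control range. Its difference was -0.27 ± 0.14 in the Jmjd2b knockdown (limma, adjusted p = 0.195). Leaving out either Jmjd2c array, which removes their spread from the fit, gave the same difference with adjusted p = 0.0472 and 0.0485. Its Jmjd2c difference was -0.07 ± 0.15 (adjusted p = 0.844), and the sign turned without Jmjd2c array 1 (0.19). The control means of Kdelr1, Kdelr2 and Kdelr3 come from different probe sets and are not set against each other.

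Hspa5 (BiP), the HSP70 chaperone that also holds the ER stress sensors inactive, had 3640, 5538 and 4830 in the control. It had 6382, 6522 and 6434 with the Jmjd2b hairpin and 5691 and 6003 with the Jmjd2c hairpin. Every knockdown array lay above every control array, and the Jmjd2c arrays lay between the control and the Jmjd2b arrays. The control arrays spread 1.52-fold, while the Jmjd2b arrays had an SD of 70.8 around a mean of 6446. The difference was 0.49 ± 0.12 (log2, SE) in the Jmjd2b knockdown, and 0.32 without control array 1, the lowest. With Jmjd2c it was 0.34 ± 0.14 (limma, adjusted p = 0.160). That value was 0.18 without control array 1 and 0.48 without control array 2 (adjusted p = 0.0471).

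Hsp90b1 (GRP94), the HSP90 chaperone that folds integrins and Toll-like receptors, had 4152, 5772 and 5210 in the control. Its values were 5957, 6123 and 6269 with the Jmjd2b hairpin and 5480 and 6392 with the Jmjd2c hairpin. The Jmjd2b arrays lay above the controls by less than the width of their own range, and Jmjd2c array 1 lay inside the control range. The differences were 0.29 ± 0.11 (limma, adjusted p = 0.0857) and 0.24 ± 0.12 (adjusted p = 0.269). The Jmjd2b difference passed with the replicate number as a block (0.29, adjusted p = 0.0361) and without control array 2 (0.39, adjusted p = 0.0292), and it was 0.16 without control array 1.

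Of the disulfide isomerases, Pdia3 rose in both knockdowns, Pdia6 rose in the Jmjd2b knockdown and Pdia4 passed in neither. Pdia3 (ERp57), which works on glycoproteins held by calnexin and calreticulin, had 1913, 2630 and 2304 in the control. It had 3554, 4127 and 3876 with the Jmjd2b hairpin and 3354 and 4055 with the Jmjd2c hairpin. The lowest knockdown array was well above the highest control, and the ranges of the knockdown groups overlapped. Pdia3 rose by 0.76 ± 0.12 in the Jmjd2b knockdown (log2, SE; limma, adjusted p = 0.00169), or 1.69-fold. It rose by 0.70 ± 0.14 in the Jmjd2c knockdown (adjusted p = 0.0134), or 1.63-fold. The second call was lost without control array 3 (adjusted p = 0.0550) and without Jmjd2c array 2 (adjusted p = 0.0557), with differences of 0.71 and 0.56.

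Pdia6, an isomerase that acts with BiP and binds the sensor IRE1, had 1269, 1882 and 1534 in the control. It had 2026, 2214 and 2051 with the Jmjd2b hairpin and 1778 and 1995 with the Jmjd2c hairpin. Only the Jmjd2b arrays were all above the controls. Pdia6 rose in the Jmjd2b knockdown by 0.44 ± 0.13 (limma, adjusted p = 0.0357), a call lost without any one of control arrays 1 and 3 and the 3 Jmjd2b arrays (adjusted p 0.0726 to 0.126, differences 0.30 to 0.46). Its value in the Jmjd2c knockdown was 0.29 ± 0.15 (adjusted p = 0.278), and 0.15 without control array 1.

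Pdia4 (ERp72), an isomerase with several catalytic domains, had 640, 990 and 892 in the control, 1151, 1076 and 963 with the Jmjd2b hairpin, and 998 and 1209 with the Jmjd2c hairpin. Jmjd2b array 3 lay below control array 2, and the Jmjd2c arrays lay just above the highest control. The differences were 0.35 ± 0.16 (limma, adjusted p = 0.149) and 0.40 ± 0.18 (adjusted p = 0.208). Pdia4 had the widest control spread of the 10, 1.55-fold, and without control array 1 the differences were 0.17 and 0.22.

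Both lectin chaperones rose in both knockdowns. Calr, the soluble lectin, had 2035, 2636 and 2370 in the control, 3460, 3897 and 3924 with the Jmjd2b hairpin, and 3096 and 3629 with the Jmjd2c hairpin. No knockdown array reached down to the controls. Calr rose by 0.68 ± 0.11 (log2, SE; limma, adjusted p = 0.00155) after Jmjd2b knockdown and by 0.52 ± 0.12 (adjusted p = 0.0260) in the Jmjd2c knockdown.

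Canx, the membrane-bound lectin, had 5356, 6432 and 5826 in the control, 6888, 7750 and 7458 with the Jmjd2b hairpin, and 7239 and 7551 with the Jmjd2c hairpin. Its groups were again apart, over a smaller distance and with the narrowest control spread of the 8 members other than Kdelr1 and Kdelr3, 1.20-fold. Canx rose by 0.33 ± 0.07 (limma, adjusted p = 0.00979) and by 0.34 ± 0.08 (adjusted p = 0.0331). The Jmjd2c calls of Calr and Canx were both lost without control array 1, control array 3 or Jmjd2c array 2. The adjusted p then lay between 0.0675 and 0.116, with differences of 0.41 to 0.53 for Calr and 0.27 to 0.33 for Canx.

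**Figure D2:**
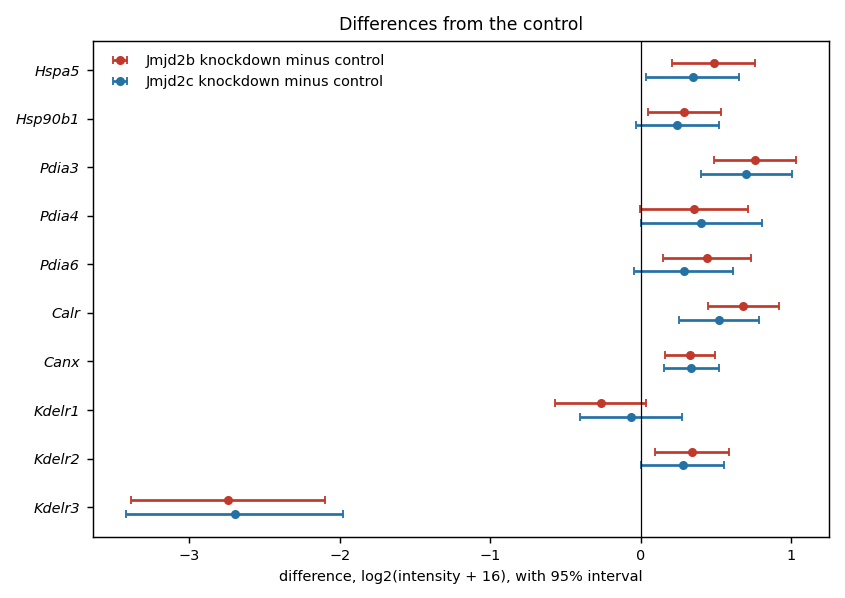
Difference of each gene from the control on the log2(intensity + 16) scale for the Jmjd2b knockdown (red) and the Jmjd2c knockdown (blue), with the 95% interval of the limma fit. Kdelr3 lies near -2.7 in both, 8 genes lie between 0.24 and 0.76, and the intervals of Kdelr1 are among those that include 0; both colours share the same control arrays.

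In the comparison of the Jmjd2c with the Jmjd2b knockdown, 0 of the 10 passed by limma and 0 had an unadjusted p under 0.05, where 0.467% of all genes passed. The differences lay between -0.16 (Calr) and 0.20 (Kdelr1). The 95% interval of Kdelr3 ran from -0.68 to 0.77, that of Calr from -0.43 to 0.10 and that of Canx from -0.18 to 0.19. Differences within these intervals remain compatible with these arrays, and each interval includes 0.

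Of the 21 probe sets, 11 were not the main one of their gene, and 8 of these were above the median level. All 8 had the sign of the main probe set in the Jmjd2b knockdown and 7 did in the Jmjd2c knockdown. The exception was the other probe set of Hsp90b1, at 0.36 in the Jmjd2b and -0.03 in the Jmjd2c knockdown. Those of Calr lay close together in the Jmjd2b knockdown (0.68, 0.65 and 0.71), as did those of Hspa5 (0.49, 0.59 and 0.54). Those of Canx spread more, from 0.33 on the brightest to 0.58 and 0.79 on dimmer ones, so the size of its change depends on the probe set. The other probe set of Kdelr2 gave 0.17, smaller than the 0.34 of the main one. Kdelr1 and Kdelr3 rest on 1 probe set each. The remaining 3, of Pdia3, Pdia4 and Pdia6, were dim, below the median level, and are given no difference here.

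Across single arrays, control array 1 had the lowest value of all 8 arrays for the 8 members other than Kdelr1 and Kdelr3. Over these 8 genes its mean deviation from the gene means was -0.52 on the log2 scale, against -0.06 and -0.23 in control arrays 2 and 3. The Jmjd2b arrays lay at 0.14, 0.24 and 0.19 and the Jmjd2c arrays at 0.02 and 0.22. The same array had the highest actin ratio, 1.63, and the part of this in the differences was not tested. Without control array 1, Pdia3 was at 0.64 and 0.58 in the Jmjd2b and Jmjd2c knockdowns (limma, adjusted p = 0.00580 and 0.0357) and Calr at 0.58 and 0.42 (adjusted p = 0.00586 and 0.0675). Kdelr3 was then at -2.71 and -2.67. The count of 5 called members in the Jmjd2b knockdown became 3 without any one of control array 1, control array 3 and the 3 Jmjd2b arrays. The count of 3 in the Jmjd2c knockdown became 1 without control array 1, and 0 by limma without control array 3 or without Jmjd2c array 2, with 4 at an unadjusted p under 0.05 each time.

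**Figure D3:**
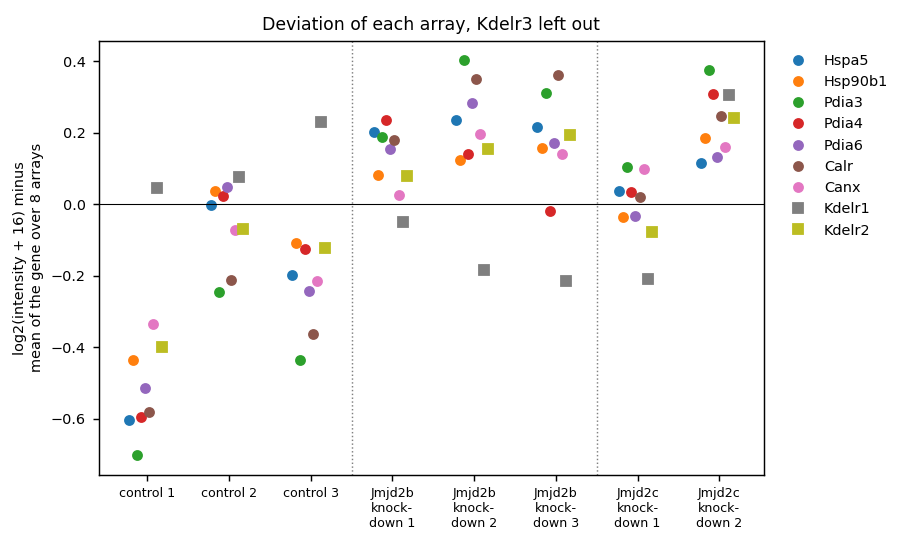
Deviation of each array from the gene's mean over the 8 arrays, log2(intensity + 16), for the members other than Kdelr3, which is off this scale; squares are KDEL receptors. Control array 1 is lowest for all but Kdelr1, the members other than Kdelr1 have a mean of 0.02 on Jmjd2c array 1, and Kdelr1 is scattered apart from the others.

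As a description over the 8 arrays, which share their groups, the 28 pairs among those 8 genes had correlations between 0.804 and 0.988, with a median of 0.924. Their correlations with Kdelr3 lay between -0.962 and -0.728, and those with Kdelr1 between -0.417 and -0.000621. Among 2248 genes (2249 for Hspa5) above the median level with a range of at least 1 on the log2 scale, the profiles most like Kdelr3 were those of Igsf21 (r = 0.996), Fbxo2 (0.993), Pck2 (0.993), Prelid2 (0.990) and Klf10 (0.990). Their differences in the Jmjd2b knockdown lay between -2.26 (Igsf21) and -1.09 (Klf10). Those most like Hspa5 were Atp6v0a2 (0.989), Ube4a (0.987), Col18a1 (0.976), Sec63 (0.974) and Ptprf (0.972). Sec63, a partner of BiP at the translocon, is also among the BiP cofactors described next.

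Other genes of ER folding and transport were followed in 11 lists, and the share of each list that passed is given beside that of all genes, 24.4% in the Jmjd2b and 9.53% in the Jmjd2c knockdown. Most genes of each list lay above the median level, where larger shares passed. With only those 9096 genes in the limma fit, 3686 and 1775 passed in the 2 knockdowns. A list share above that of all genes is therefore not read as an excess. The lists are short, so a share below that of all genes is not read as a lack either. Of 14 measured BiP cofactors, 5 rose and 0 fell in the Jmjd2b knockdown (limma, with 7 higher and 2 lower at an unadjusted p under 0.05), or 35.7%, with a median difference of 0.30. Sec63 rose by 0.90 ± 0.20 (log2, SE), Dnajb11, a BiP co-chaperone, by 0.66 ± 0.12, and Hyou1, its nucleotide exchange factor, by 0.44 ± 0.11. In the Jmjd2c knockdown 1, Hyou1 (0.50 ± 0.13), rose and 0 fell (4 and 0 unadjusted), or 7.14%, below the share of all genes, with a median of 0.10.

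Of 18 other disulfide isomerases and genes of ER thiol oxidation, 2 rose and 2 fell in the Jmjd2b knockdown, or 22.2%, below the share of all genes, with a median of 0.03. Prdx4, a peroxiredoxin of the ER, rose by 0.70 ± 0.13, whereas Ero1b, an oxidase that recharges isomerases, changed by -0.72 ± 0.14 and the transmembrane thioredoxin Tmx2 by -0.45 ± 0.11. Prdx4 was the one gene of this list that passed in the Jmjd2c knockdown (0.64 ± 0.15, adjusted p = 0.0276), or 5.56%, and 2 passed with the replicate block.

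Of 14 genes of the glycoprotein folding cycle, 2 rose and 1 fell in the Jmjd2b knockdown (21.4%; median -0.06), and 1 rose and 0 fell in the Jmjd2c knockdown (7.14%; limma, 1 and 1 unadjusted; median 0.18). Both shares were below those of all genes. Lman2, a cargo lectin, rose by 0.99 ± 0.15 and 0.85 ± 0.16, and Mlec, a glucose-binding ER lectin, by 0.62 ± 0.20 in the Jmjd2b knockdown. Uggt1, which marks unfolded glycoproteins for another round with calnexin, had 0.25 ± 0.11 (adjusted p = 0.135) and 0.26 ± 0.12 (adjusted p = 0.226). The gene that fell was Clgn (-1.20 ± 0.18), the testis relative of calnexin, named after its value was seen.

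Of 17 prolyl isomerases, collagen chaperones and calcium-binding luminal proteins, 4 rose and 1 fell in the Jmjd2b knockdown and 2 rose and 0 fell in the Jmjd2c knockdown (limma, 4 and 1 unadjusted). The shares were 29.4% and 11.8%, and the medians 0.19 and 0.20. Serpinh1 (HSP47), the collagen chaperone, rose from 246 ± 33.9 in the control to 889 ± 101 in the Jmjd2b knockdown (SD, n = 3 each). Its difference of 1.79 ± 0.18 was larger than that of any of the 9 members other than Kdelr3, and in the Jmjd2c knockdown it was 0.95 ± 0.20. Fkbp2, a prolyl isomerase, rose by 0.58 ± 0.12 and 0.69 ± 0.13. Rcn2, a calcium-binding luminal protein, rose by 0.73 ± 0.16 in the Jmjd2b knockdown.

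Of 17 genes of ER-associated degradation, which removes misfolded proteins, 8 rose and 0 fell in the Jmjd2b knockdown (limma, 11 and 1 unadjusted), or 47.1%, with a median of 0.35. Among them were Ube2j1, an ER ubiquitin-conjugating enzyme (0.82 ± 0.18), Selenos, a selenoprotein of the retrotranslocation complex (0.75 ± 0.12), and Nploc4, a cofactor of the ATPase p97 (0.55 ± 0.11). For Jmjd2c 3 rose and 0 fell (17.6%; 7 and 1 unadjusted; median 0.25), including Ube2j1 (0.72 ± 0.20) and Selenos (0.67 ± 0.14).

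The regulators of the unfolded protein response did not move one way. Of 10 sensors, proteases and factors, 3 rose and 1 fell in the Jmjd2b knockdown (40%; median -0.14), and 1 rose and 1 fell in the Jmjd2c knockdown (20%; median -0.10). With the replicate block 1 rose there and 0 fell (limma). Eif2ak3 (PERK) changed by -0.63 ± 0.12 and Creb3, an ER-bound factor related to ATF6, by 1.22 ± 0.17 in the Jmjd2b knockdown. Atf6b, a relative of ATF6, rose by 0.81 ± 0.13 and 0.78 ± 0.15. Xbp1, Atf6 and Ern1, the gene of IRE1, passed in neither knockdown. In the Jmjd2b knockdown they had -0.06 ± 0.08, -0.37 ± 0.20 and -0.30 ± 0.23 (limma, adjusted p = 0.676, 0.237 and 0.402). In the Jmjd2c knockdown they had -0.20 ± 0.09, 0.0017 ± 0.23 and 0.05 ± 0.26 (limma, adjusted p = 0.234, 0.997 and 0.948). Of 10 genes of the ATF4 and CHOP branch, 7 fell and 0 rose in the Jmjd2b knockdown (70%; limma, 7 lower and 1 higher unadjusted; median -0.58). After Jmjd2c knockdown 6 fell and 0 rose (60%; 8 and 0 unadjusted; median -0.63). Ddit3 (CHOP), Trib3 and Chac1 had the smallest p of this branch, and Chac1 changed by -2.04 ± 0.26 in the Jmjd2c knockdown. This branch was known to be lower from earlier results of these arrays, so its direction is no independent evidence.

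Of the machinery that KDEL receptors travel with, 6 of 28 genes of the COPI coat and Golgi-to-ER retrieval rose and 3 fell in the Jmjd2b knockdown, or 32.1%, with a median of 0.05. Gosr2, a Golgi SNARE, rose by 0.73 ± 0.11, while the coat subunit Copg2 changed by -0.81 ± 0.13 and the ARF regulator Arfgap3 by -1.23 ± 0.19. In the Jmjd2c knockdown 2 rose and 1 fell (10.7%; median -0.05), with Gosr2 at 0.49 ± 0.12 and Arfgap3 at -0.88 ± 0.21. With the replicate block 1 rose there and 0 fell. Of 15 genes of the COPII coat and ER exit 2 rose and 1 fell in the Jmjd2b knockdown (20%; median 0.16), and in the Jmjd2c knockdown 0 rose and 1 fell (6.67%; limma, 4 and 1 unadjusted; median 0.10), both below the shares of all genes. With the replicate block 0 passed in the Jmjd2c knockdown by limma (4 unadjusted). The paralogous coat subunits Sec23a (-0.50 ± 0.10) and Sec23b (0.30 ± 0.08) went opposite ways in the Jmjd2b knockdown, and Preb, which activates the coat GTPase, rose by 0.42 ± 0.11.

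Of 19 genes of the translocon and signal peptidase, 4 rose and 0 fell in the Jmjd2b knockdown (21.1%, below the 24.4% of all genes; limma, 8 and 0 unadjusted; median 0.15). Sec11a, the catalytic subunit of signal peptidase, rose by 0.73 ± 0.11, its partner Spcs2 by 0.48 ± 0.10 and Srp19 of the signal recognition particle by 0.33 ± 0.08. Only Sec11a passed in the Jmjd2c knockdown (0.66 ± 0.12; 5.26% of the list; 3 higher and 1 lower unadjusted by limma; median 0.11), and 2 passed with the replicate block. Of 23 cytosolic and mitochondrial chaperones, which lie outside the ER, 7 rose and 2 fell in the Jmjd2b knockdown (39.1%; median 0.09), and 4 rose and 1 fell in the Jmjd2c knockdown (21.7%; median -0.02). Hsph1, an HSP110 of the cytosol, rose by 0.85 ± 0.10 and 0.67 ± 0.11, Dnajb6 by 0.63 ± 0.09 and 0.56 ± 0.11, and Dnaja1 by 0.45 ± 0.07 and 0.34 ± 0.08.

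**Figure D4:**
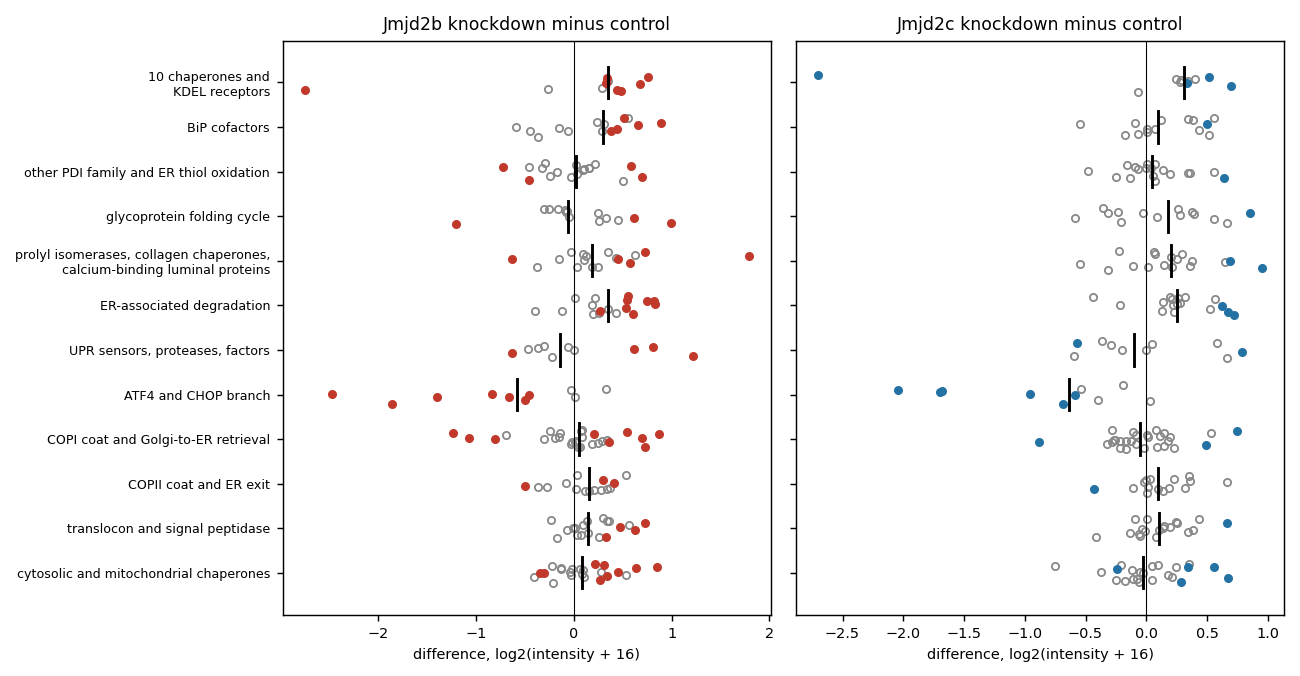
Difference from the control, log2(intensity + 16), of every measured gene of the 10 members and of 11 lists, for the Jmjd2b (left) and the Jmjd2c knockdown (right). Filled points passed limma over all genes and black bars are medians; the bar lies at 0.35 for the 10 members and at -0.58 for the ATF4 and CHOP branch on the left. There the BiP cofactors, ER-associated degradation and the translocon list hold filled points only above 0, the ATF4 and CHOP branch only below, and the other 7 lists on both sides.

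These list counts depend on single arrays and on the array set. For the Jmjd2b knockdown, leaving out control array 3 left 2 calls among the BiP cofactors, 2 among the other isomerases, 3 among the prolyl isomerase list, 3 in ER-associated degradation, 1 in the COPII list and 5 among cytosolic chaperones. Without control array 1 the BiP cofactors had 3 calls and ER-associated degradation 5. Without Jmjd2b array 1 these counts were 3 and 4 and the COPII list had 1. Without Jmjd2b array 2 they were 2 and 5, the other isomerases had 2 and the COPII list 1. The single COPII call was a fall each time. With only the control and Jmjd2b arrays in the fit, the BiP cofactors and the COPII list had 8 calls each, 6 higher and 2 lower. The translocon list then had 8 calls, all higher. The counts of the glycoprotein cycle (2 to 4), the response regulators (3 to 5), the ATF4 and CHOP branch (6 to 7) and the COPI list (6 to 11) moved by at most 1.5 times when an array was left out. With the array set as a block 1 BiP cofactor, 3 genes of the prolyl isomerase list, 5 of ER-associated degradation, 2 of the translocon list and 5 cytosolic chaperones passed, and 0 of the COPII list by limma (5 unadjusted), while the ATF4 and CHOP branch kept a count of 7.

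For the Jmjd2c knockdown only the ATF4 and CHOP branch (4 to 6) kept its count within 1.5 times when an array was left out. With the array set as a block 0 genes passed by limma in each of the 11 lists, this branch included, with 0 to 8 at an unadjusted p under 0.05. The single call among the BiP cofactors, Hyou1, was lost without any one of control array 1, control array 3 and the 3 Jmjd2b arrays. The calls of the other isomerases (Prdx4) and of ER-associated degradation (Ube2j1 and Selenos among them) were all lost without control array 3 or Jmjd2c array 2. Prdx4 was also lost without control array 1. Without control array 3 the lists at 0 by limma were 7 of 11 (2 to 5 unadjusted), namely these 3 with the glycoprotein cycle, the regulators, COPI and COPII, and 1 gene each passed in the prolyl isomerase list and among cytosolic chaperones. Without control array 1 the BiP cofactors, the other isomerases and COPII were at 0 (3 to 4 unadjusted), the prolyl isomerase list, ER-associated degradation, the regulators and COPI had 1 call each, and cytosolic chaperones 2. Without control array 2 COPII was at 0 (6 unadjusted), the prolyl isomerase list, the regulators and COPI had 1 and the translocon list 3. Without Jmjd2b array 1 or 2 COPII was at 0 too (4 unadjusted), ER-associated degradation and the regulators had 1 and cytosolic chaperones 3. Leaving out Jmjd2c array 1 raised the counts, to 10 in ER-associated degradation, 7 in the prolyl isomerase list, 4 in the other isomerases, the glycoprotein cycle, the regulators and the translocon list, 3 among BiP cofactors and 2 in the COPII list. Without Jmjd2c array 2 the 2 lists at 0 had 4 genes each at an unadjusted p under 0.05, and the glycoprotein cycle and cytosolic chaperones had 2 calls each.

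Secretory endoderm is rich in ER and could be present in an ES cell culture, so its markers were set beside these results. The summed intensity of 16 endoderm markers was 3505 to 4482 in the control, 6416 to 7504 with the Jmjd2b hairpin and 5075 and 4482 with the Jmjd2c hairpin. It moved with the Jmjd2b group, in which 4 of the 16 passed as higher and 3 as lower. Sparc and Lamb1, matrix genes, made up most of it and were higher, with Sparc at 2312 ± 153 in the control and 4215 ± 401 in the Jmjd2b knockdown (SD, n = 3 each). Dab2, an endocytic adaptor of endoderm, was at 40.0 ± 7.12 in the control, 127 ± 13.8 in the Jmjd2b and 78.0 ± 13.6 in the Jmjd2c knockdown, and it passed in both (limma, adjusted p = 0.000327 and 0.0269). Foxa2, an endoderm factor, was at 13.1 ± 2.80 in the control and 92.6 ± 23.6 in the Jmjd2b knockdown (adjusted p = 0.00820). Lama1, Amn and Apoa1 were lower. Of the 16, Sparc, Lamb1 and Lama1 were above the median of all genes. Gata4, Gata6, Sox17, Afp and Ttr, which also mark endoderm, had means between 9.09 and 51.1 in the 3 groups and did not pass in the Jmjd2b knockdown. The part of endoderm cells in the results was not tested. Of 13 measured fibroblast markers 1, Pdgfrb, was above the median, and their sum was 716 to 764 in the control, 514 to 597 in the Jmjd2b knockdown and 525 to 618 in the Jmjd2c knockdown. In the Jmjd2b knockdown 2 of them were lower (Pdgfrb and Thy1) and 3 higher from low levels, Twist1 by 1.84 ± 0.21, Col1a1 by 1.34 ± 0.17 and S100a4 by 0.80 ± 0.16 (log2, SE). For 8 neural markers, of which 4 were above the median, the sums were 1203 to 1382, 1190 to 1756, and 1855 and 1051, which overlap. Nes was nevertheless higher in the Jmjd2b knockdown, by 1.57 ± 0.18, and Pax6 in both, by 1.44 ± 0.28 and 1.88 ± 0.31. The part of fibroblast and neural cells in the results was not tested.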

How the data were processed

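RNA of 8 samples was profiled on 1 Affymetrix array each. Each deposited column holds linear probe set intensities. The authors' steps of summarising, background correction and scaling are not given in the sources used for this text. Of 45101 probe sets, 34945 carry 1 gene symbol in the platform annotation. Values were used as deposited, as log2(intensity + 16), a scale that understates changes of dim genes. Group means over all 8 arrays were fitted in limma 3.58.1 (R 4.3.3; lmFit, eBayes with a trend) to 18193 genes, two-sided, with Benjamini-Hochberg adjustment over all genes and a threshold of 0.05. The fit was tested on simulated data. Figures and tables used Python 3.11.15, pandas 2.3.3 and matplotlib 3.10.9.

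The members, gene lists, motifs and array sets were chosen with earlier results of these data known. The text names all members, up to 3 genes per list with the smallest p in either knockdown against the control among those above the median level, and the 5 genes with the profile most like Kdelr3 and Hspa5. Cell type markers that passed were named after their values were seen. Xbp1, Atf6 and Ern1 were named because the background names their proteins.

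Replicate numbers come from the sample titles. The labels do not state a pairing, and the main fit used none. Replicate number entered only as a block among the alternatives. Deviations from group means correlated at 0.176, 0.111 and 0.116 for same-numbered control and Jmjd2b arrays and at -0.127 to 0.0164 for differently numbered ones. Between the knockdowns, same-numbered arrays gave -0.0596 and 0.141, while Jmjd2b array 3 with Jmjd2c array 1 gave 0.166. Whether the numbers pair arrays is thus uncertain. The Jmjd2c arrays gave 0.0422 and 0.0640 with the controls of their number.

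Alternatives were the pseudocount, quantile normalization, a filter on dim genes, the choice of probe set, the groups in the fit, no trend, blocks for replicate number, array type (low values ending at 1 or not) and array set, and leaving out each array.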

Additional observations from a re-analysis of the deposited data

How the results depend on the processing

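Leaving out the values the set was chosen by, 27 differences were computed under 19 alternatives. Of these 513 values, 453 kept direction and side of the threshold, 38 lost their call, 7 gained one and 15 turned. In the Jmjd2b knockdown Pdia3 and Calr kept their calls under all 19. Of the 8 members other than Hspa5 and Kdelr3, those past the threshold there (5) were 2 with no trend or with the array set as a block. They were 3 with probe sets averaged or with array type as a block, and 3 to 6 with a control or Jmjd2b array left out. In the Jmjd2c knockdown, of the 9 members other than Kdelr3, they (3) were 2 with probe sets averaged. They were 1 with only the 2 groups, with no trend or with array type as a block. With the array set as a block they were 0 (limma, 1 unadjusted), where no control shares a set with these arrays. With a control or Jmjd2b array left out they were 0 to 4, lowest without control array 3 (limma, 4 unadjusted). Between knockdowns they were 0 to 0. All genes called in the Jmjd2b knockdown (4441) ranged from 2624 (without control array 3; 2747 without Jmjd2b array 2) to 5615 with arrays left out. In the Jmjd2c knockdown (1733) they were 874 with only the 2 groups, 1043 with array type and 6 with array set as a block, and 462 to 2919 with arrays left out. Between knockdowns (85) they were 142 with pseudocount 64, 2 with only the 2 groups, 145 with the replicate block, 4 with array type, 5 with array set as a block, and 2 to 788 with arrays left out. The replicate block called 6 of the 8 members other than Hspa5 and Kdelr3 in the Jmjd2b knockdown, adding Hsp90b1. It changed no other call of a member. With the array set as a block, Hspa5 had 0.48, Pdia6 0.46 (adjusted p = 0.121), Canx 0.33 (0.0509; 0.0631 with no trend) and Kdelr2 0.31 (0.202) in the Jmjd2b knockdown, and Kdelr3 -2.49 in the Jmjd2c knockdown. Averaging probe sets, dim ones included, gave Pdia3 0.28 there (adjusted p = 0.187).

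The values that turned sign were all uncalled: with array type as a block Kdelr3 between knockdowns (-0.039), with array set as a block Kdelr1 in the Jmjd2c knockdown (0.0043) and Canx between knockdowns (-0.012). With arrays left out, differences between the knockdowns lay at -0.040 to 0.045 (Canx), -0.58 to 0.68 (Kdelr3), -0.086 to 0.19 (Pdia4), -0.16 to 0.064 (Hsp90b1), -0.20 to 0.076 (Pdia3), -0.22 to 0.10 (Kdelr2) and -0.058 to 0.46 (Kdelr1), and Kdelr1 in the Jmjd2c knockdown at -0.32 to 0.19. The cause was not tested for any of these.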

Other observations

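The genes whose promoter window holds the ER stress element were looked up after the values of the 10 were seen, so this is a description and not a test. The windows with the element name 37 genes, 20 of them measured. In the Jmjd2b knockdown 6 of the 20 were called higher and 5 lower by limma, beside 11.5% and 12.9% of all genes. With the 5 chaperones left out, 2 of 15 were higher and 5 lower, with a median difference of -0.20, beside -0.03 for all genes. In the Jmjd2c knockdown 4 of the 20 passed, all higher, beside 4.28% of all genes, and with the chaperones left out 2 of 15 passed, both higher (median -0.08, beside -0.02). Syvn1, the ubiquitin ligase of ER-associated degradation, was one that rose, by 0.60 ± 0.14 in the Jmjd2b knockdown and 0.62 ± 0.16 in the Jmjd2c knockdown (log2, SE; adjusted p = 0.0125 and 0.0386). Ero1b, an oxidase of the ER, fell in the Jmjd2b knockdown by 0.72 ± 0.14. Creld2 and Dnajc3, ER proteins that assist folding, had 0.29 ± 0.14 and 0.55 ± 0.24 there and did not pass (adjusted p = 0.157 and 0.130).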
